A study of Mus musculus with 12 samples.

Results

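The genes described here are those for the proteins of the cytosolic ribosome, followed in mouse granulocyte-monocyte progenitor clones with and without Taz. They were found by symbol: a protein-coding gene was taken when its GENCODE M21 symbol was Rpl or Rps followed by a number (with an optional letter and digit), or was Rplp0, Rplp1, Rplp2 or Rpsa. The rule found 82 genes among the 37583 gene identifiers of the count files, 50 of the large and 32 of the small subunit. One further gene with a matching symbol, Rpl24, was not analysed here. A low-count filter passed 80 of the 82, with all 32 small subunit genes and 48 large subunit genes, among 11819 genes tested. Rpl10l and Rpl39l did not pass.

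All 12 libraries came from C57BL/6 fetal liver progenitors of embryonic day 15.5 that carried a retroviral ER-Hoxb8 fusion, a Hoxb8 made active by estrogen. The cells of both genotypes grew in stem cell factor (SCF, about 50 ng/ml from conditioned medium) with 0.5 uM beta-estradiol, which holds them as dividing progenitors. Each library was 1 clone grown from 1 cell, 6 labelled wildtype and 6 labelled as Taz knockout. Sample titles number the clones 1 and 2 in the wild type (1A, 1B, 1C, 2D, 2E, 2F) and 3 and 4 in the knockout (3G, 3H, 3I, 4J, 4K, 4L). What a title number stands for is not given in the labels. If clones of 1 number came from 1 embryo or 1 transduced culture, the 6 clones of a genotype are not 6 independent samples and the p-values below are too small. Those p-values set the genotype difference against the spread between clones.

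A ribosome is built from a large and a small subunit, each an RNA core dressed with single copies of many proteins. Nearly all of the protein genes are needed in equal amounts, and their mRNAs are among the most abundant of a dividing cell. Most start with a C and a run of pyrimidines, the 5' terminal oligopyrimidine (TOP) tract, through which the growth kinase mTORC1 and the binding protein LARP1 control their translation. Reduced dosage of several of these genes causes Diamond-Blackfan anemia, a failure of red cell production. Taz encodes tafazzin, the mitochondrial enzyme that remodels cardiolipin.

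The start site sequences are shown for 8 members, 7 with a TOP-like tract at an annotated start and 1 without. Each is 30 bases before and 25 bases from the start site in RefSeq's table for GRCm38.p6, so the start is base 31. Runs of 5 or more pyrimidines are in capitals. The first 5 members were higher in the knockout, Rpl38 and Rps6 were not called, and Rpl7l1 is a paralog copy.
Rpl14, chr9:120571487-120571541, plus strand: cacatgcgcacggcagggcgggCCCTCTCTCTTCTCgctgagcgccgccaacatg
Rpl35a, chr16:33056452-33056506, plus strand: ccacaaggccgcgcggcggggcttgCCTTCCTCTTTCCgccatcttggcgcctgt
Rplp2, chr7:141447621-141447675, plus strand: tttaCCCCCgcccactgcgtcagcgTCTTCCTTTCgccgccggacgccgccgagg
Rps15a, chr7:118116123-118116177, minus strand: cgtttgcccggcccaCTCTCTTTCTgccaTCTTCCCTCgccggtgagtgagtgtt
Rps18, chr17:33955641-33955695, minus strand: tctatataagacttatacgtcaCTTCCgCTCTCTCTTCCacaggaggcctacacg
Rpl38, chr11:114668550-114668604, plus strand: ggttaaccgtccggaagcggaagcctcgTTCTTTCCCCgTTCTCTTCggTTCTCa
Rps6, chr4:86857343-86857397, minus strand: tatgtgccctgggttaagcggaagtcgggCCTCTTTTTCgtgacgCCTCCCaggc
Rpl7l1, chr17:46782632-46782686, minus strand: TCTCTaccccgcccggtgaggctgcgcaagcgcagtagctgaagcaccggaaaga
In the first 7 windows the start falls on a C followed by at least 4 pyrimidines. They were picked from 13 members with such a start, 6 of them called and 7 not called. Called members are thus over-represented in this display. The Rpl7l1 window has no such tract at its start.

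RefSeq's table held 62 of the 82 members, with Rps20 not among them. A C followed by 4 pyrimidines stood at an annotated start of 13 of the 62 members (20.97%) and of 3.01% of all 27025 genes in the table. A run of 7 or more pyrimidines lay within 40 bases before to 50 bases after a start in 88.7% of the members and 50.3% of all genes. The 5 letters CTTTC, as in Rps15a, were found on the gene's own strand of that 90-base window in 51.6% of the members and 13.2% of all genes. On the other strand they were found in 12.9% and 12.7%. These letters overlap the pyrimidine runs, so the 2 measures are not separate. Among the 23 called members in the table, 26.1% had the tract at a start, and among the 39 other members 17.9%. The difference between those 2 shares was not tested.

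Copies of these genes bear on how the counts are read, since the deposited counts leave out reads that map to several places. Their part in the level of each gene was not tested. Processed pseudogenes, DNA copies of spliced mRNAs, exist for most of the family. The first 50 coding bases of 3 members, from GENCODE M21 transcripts, show the range. Capitals mark the bases that differ between a member and the nearest transcript of another gene.
Rps6: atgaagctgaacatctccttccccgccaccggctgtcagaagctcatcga
Rpl13a: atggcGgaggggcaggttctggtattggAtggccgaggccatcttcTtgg
Gm6533: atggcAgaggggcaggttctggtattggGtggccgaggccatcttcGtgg
Rpl4: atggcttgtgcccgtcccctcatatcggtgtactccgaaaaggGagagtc
Gm5835: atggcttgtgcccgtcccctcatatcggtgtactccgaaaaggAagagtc
The Rps6 stretch is present letter for letter in 7 other genes, so it has no capitals. The Rpl13a stretch differs from the pseudogene Gm6533 at 3 bases, and the Rpl4 stretch from the pseudogene Gm5835 at 1.

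Over whole coding sequences, 67 of the 82 members had at least 50% of their 50-base words in transcripts of another gene, and 28 had all of them. Rpl3l and Rpl39l were among those with none. Rps3, a small subunit protein at the mRNA entry, has 8.09% of its coding words elsewhere and was counted at 1895 ± 123 CPM in the wild type (SD, n = 6). CPM is the count scaled to a fixed library total, here with TMM factors. Rps6, the small subunit protein that S6 kinases phosphorylate, has all its coding words elsewhere and was counted at 2.45 ± 0.440 CPM. Rps27, which has 100% of its coding words elsewhere, was at 0.948 ± 0.290 CPM, and Rpl23a at 0.484 ± 0.187 CPM. Since reads at several places are left out, these levels are not given as amounts of mRNA.

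Per kb of transcript, the 13 tested members with under 50% of coding words elsewhere had a wild-type median of 841.9 CPM, and the 24 with 50% to under 90% had 238 CPM. The 43 with 90% or more had 15.2 CPM per kb. Of the 27 members with a mean under 5 log2 CPM, 26 were in the class of 90% or more, and the other was Rpl3l, a paralog of Rpl3 known from muscle. Among the highest members per kb in the wild type were Rpl8 at 1878 ± 143 CPM per kb and Rpl4 at 1589 ± 59.9. The 3 lowest tested were Rpl3l (0.804), Rpl23a (0.865) and Rps23 (1.77 CPM per kb). The reference transcripts of Rps20 (3706 bases) and Rps15a (5130 bases) are far longer than their coding sequences of 357 and 390 bases, so their levels per kb of 75.4 and 47.5 CPM are low for that reason.

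**Figure D1:**
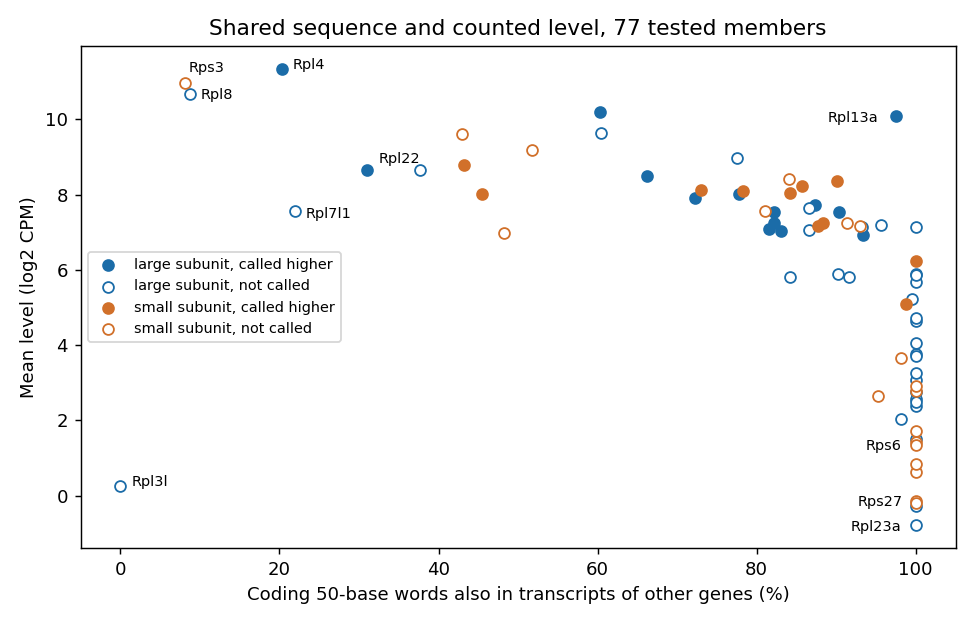
Mean level over the 12 clones (log2 CPM, vertical axis) against the share of a member's coding 50-base words that also occur in transcripts of other genes (percent, horizontal axis); each point is 1 of 77 tested members, coloured by subunit and filled where called higher in the knockout. Of the 27 members under 5 log2 CPM, 26 stand at 90% or more, with Rpl3l alone at the lower left.

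The gene counts of a clone ranged from 18970252 to 27431544, with a mean of 24969227 in the wild type and 21197723 in the knockout. Reads at several places made up 42.8% to 43.8% of the counted and special categories in the wild type and 43.4% to 44.9% in the knockout. Taz itself was at 37.1 to 43.9 CPM in the 6 wild-type clones and at 2.21 to 4.08 CPM in the 6 knockout clones, so no library went against its label. Of 10 granulocyte-monocyte progenitor markers, 9 were above 10 CPM in every clone. Of 7 mature neutrophil genes tested, only Cxcr2 was called, lower in the knockout, and the summed level of all 10 listed was 1524 CPM in clone 2D against 15.9 to 145 CPM in the other clones. Of 7 monocyte and 5 erythroid genes tested, edgeR called none, with 0 and 1 at an unadjusted p under 0.05 and 0 and 1 by DESeq2. The part of these cell types in the results was not tested. In such bulk libraries, fewer cells of a type and less RNA per cell cannot be told apart.

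Many ribosomal protein genes were higher, by small amounts, in the Taz knockout clones. Of 80 members tested, 28 were called higher and none lower by edgeR's quasi-likelihood test at an adjusted p under 0.05 (Benjamini-Hochberg over all 11819 genes). Over all genes, 3.99% were called higher and 3.94% lower. At an unadjusted p under 0.05, 40 members were higher and 3 lower (Rpl7l1, Rps25 and Rps7). Of all 11819 genes, 1329 were higher and 1477 lower at that threshold. DESeq2 called 36 members higher and 2 lower, with 6.07% of all genes higher, and limma voom 26 and none, with 4.21% of all genes higher. The log2 fold change was above 0 in 63 members and below 0 in 17. Its median was 0.12 over the members and -0.01 over all genes. The called members were higher by a median of 12.7%.

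Most calls lay among the members with the higher counted levels. At a mean of 7 log2 CPM or more, 25 of 42 members were called higher, 40 of 42 had a positive log2 fold change and the median was 0.15. Among all 2085 genes of that level, 6.67% were called higher. Below 7 log2 CPM, 3 of 38 members were called (Rpl7a, Rps28 and Rpsa), and below 5 log2 CPM none of 27, with 13 positive and 14 negative. At that low level 1 member was higher and 2 were lower at an unadjusted p under 0.05 in edgeR, and DESeq2 called 1 in each direction. The standard error of the log2 fold change had a median of 0.04 in the abundant members and 0.11 in those under 5 log2 CPM, whose log2 fold changes had a median of -0.01. By shared sequence, 6 of 13 members with under 50% of coding words elsewhere were called, 16 of 24 in the middle class and 6 of 43 in the class of 90% or more. Over all genes 3.99% were called higher. The median levels of these classes were 8.80, 7.81 and 3.72 log2 CPM, so the classes also differ in level. The parts of level and of shared sequence in the calls were not tested.

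**Figure D2:**
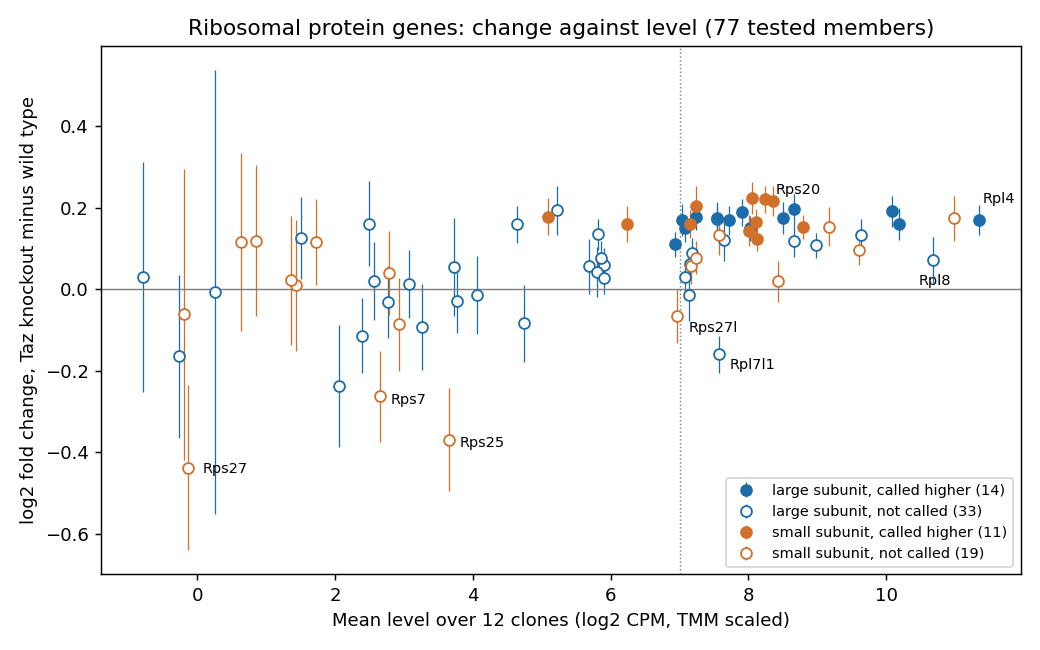
Difference between genotypes (log2 fold change, knockout minus wild type, with its standard error) against the mean level over 12 clones (log2 CPM) for 77 tested members, coloured by subunit and filled where called. To the right of the dotted line at 7 log2 CPM, 37 of the 39 drawn members lie above 0 and 22 are filled, while members under 5 scatter on both sides with wide bars.

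Rps20, a small subunit protein of the head, ranged from 268.8 to 293.4 CPM in the wild type (median 278.4) and from 308.3 to 339.6 CPM in the knockout (median 322.8). Every knockout clone was above every wild-type clone. The log2 fold change was 0.22 ± 0.03 (SE, adjusted p = 0.00296, edgeR). Rps15a ranged from 230.7 to 257.5 CPM in the wild type (median 243.7) and from 268.2 to 309.4 CPM in the knockout (median 281.2), a log2 fold change of 0.22 ± 0.04. Rps4x, the X-linked copy of RPS4, ranged from 287.6 to 315 CPM in the wild type (median 306.7) and from 328.5 to 371.2 CPM in the knockout (median 353.3), a log2 fold change of 0.22 ± 0.04. Neither gene's genotypes overlapped, and 3G was the highest clone in both. Rps15, at the top of the small subunit head, was at 406.8 to 439.6 CPM (median 418.3) and 459.2 to 491.1 CPM (median 462.5), a log2 fold change of 0.15 ± 0.03. Rps24, mutated in some cases of Diamond-Blackfan anemia, was at 243.4 to 270.9 CPM (median 262.9) and 276.4 to 302.0 CPM (median 295.3), a log2 fold change of 0.16 ± 0.03. The adjusted p of these 4 genes lay between 0.00603 (Rps4x) and 0.0124 (Rps24) in edgeR's test.

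Among large subunit genes, Rpl4, a lining protein of the exit tunnel, had the highest CPM of all members. It ranged from 2300 to 2581 CPM in the wild type (median 2441) and from 2585 to 2891 CPM in the knockout (median 2755). The lowest knockout clone, 4K, stood just above the highest wild-type clone, 2F, and the log2 fold change was 0.17 ± 0.04 (adjusted p = 0.0167, edgeR). Rpl13a ranged from 944.7 to 1068 CPM (median 1018) and from 1087 to 1213 CPM (median 1162), with no overlap and a log2 fold change of 0.19 ± 0.04. Rpl22, an RNA-binding member that also serves in lymphocyte development, ranged from 358.7 to 407.8 CPM (median 374.0) and from 410.3 to 449.7 CPM (median 432.2), with no overlap and a log2 fold change of 0.20 ± 0.04. Rpl34 was at 211.1 to 235.9 CPM (median 225.6) and 242.6 to 271.3 CPM (median 256.1), and Rpl18 at 169.3 to 183.9 CPM (median 175.6) and 191.2 to 207.0 CPM (median 197.1). Their log2 fold changes were 0.19 ± 0.03 and 0.17 ± 0.03. Rpl35a and Rpl14 followed with 0.18 ± 0.03 and 0.15 ± 0.03, again without overlap between the genotypes. These 7 genes had adjusted p between 0.00504 (Rpl18) and 0.0167 (Rpl4) in edgeR's test.

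The other called members included Rpl26, Rpl37, Rpl37a, Rpl30, Rpl7a, Rplp0 and Rplp2 of the large subunit, and Rps3a1, Rps18, Rps21, Rps26, Rps28 and Rpsa of the small subunit. Their log2 fold changes ran from 0.11 (Rpl7a) to 0.20 (Rps3a1). Over all 28, 18 had every knockout clone above every wild-type clone and 10 overlapped. Counting all members, 20 of 80 had that full separation upward, against 2.54% of all genes tested. The other 2 were Rpl35 and Rps9 (log2 fold change 0.10), which were not called. The just uncalled members were Rpl7 (log2 fold change 0.11, adjusted p = 0.0501), Rpl7l1 (-0.16, 0.0510) and Rpl35 (0.13, 0.0530), and just inside stood Rpl7a (0.0473) and Rps28 (0.0468), all by edgeR.

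**Figure D3:**
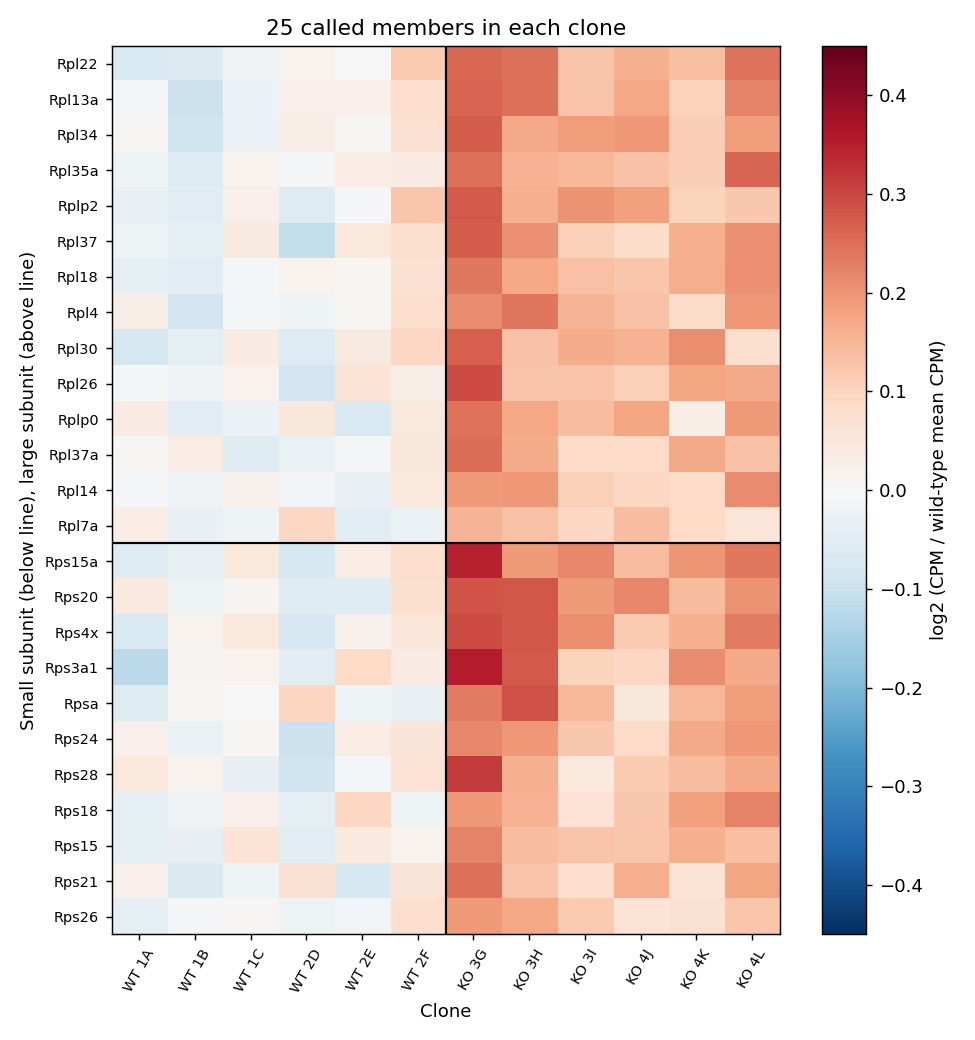
Level of 25 of the 28 called members in each of the 12 clones, as log2 of CPM over the wild-type mean (colour scale), with large subunit genes above the horizontal line and the genotypes on either side of the vertical line. Clone 3G is the highest of all 12 in 20 of the 25 members drawn, and the other knockout clones are paler but on the same side.

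Clone 3G held the highest value of 23 called members, 4L of 3 and 3H of 2. Without 3G, 23 members were called, 21 of them among the 28, beside 2.77% of all genes. The count was most sensitive to wild-type clones 1A and 1B: without either, 16 members were called higher, all among the 28. Without 1A, 2.76% of all genes were called higher, and without 1B 2.54%. Of the 28 called members, 16 stayed called in each of the 12 fits that left out 1 clone, among them Rps20, Rps4x, Rpl22, Rpl13a and Rpl4. Rps28 was called in 1 of those 12 fits, Rpsa in 2 and Rplp0 in 3. Without 1B or without 1C, Rpl7l1 was called lower.

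By place in the ribosome, the calls were spread over both subunits. The P stalk, which recruits elongation factors, has 3 members: Rplp0 and Rplp2 were called higher, and Rplp1 was at 717.9 to 839.3 CPM in the wild type and 791.9 to 864.3 CPM in the knockout (log2 fold change 0.13, adjusted p = 0.0636, edgeR). Wild-type clone 2F was high in Rplp1, and without it the adjusted p was 0.0134 (edgeR). No uncalled member of 7 log2 CPM or more, Rplp1 among them, was called in over 2 of the 12 fits without 1 clone. The 5S particle of Rpl5 and Rpl11, which can bind MDM2 and raise p53, gave 5.25 ± 0.329 against 5.86 ± 0.791 CPM for Rpl5 and 6.80 ± 0.710 against 6.65 ± 0.348 CPM for Rpl11 (SD, n = 6 each), neither called by edgeR or DESeq2, nor at an unadjusted p under 0.05. All the coding words of both are shared. Of 9 members at the exit tunnel, 3 were called higher (33.3%) and all 9 log2 fold changes were positive. Of 13 small subunit head members, 5 were called higher (38.5%), with Rps25 the lowest at -0.37. Of all members tested 35% were called higher, and of all genes 3.99%. The shares of the exit tunnel and the head are thus near that of all members.

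Of 21 genes of Diamond-Blackfan anemia, 8 were called higher (38.1%) and none lower. That share is near the 35% of all members, beside 3.99% of all genes. The median log2 fold change of the 21 was 0.12, beside the same 0.12 for all members. At an unadjusted p under 0.05, 10 of them were higher and 1 was lower. Rps19, the gene most often mutated in that disease, was at 169.1 to 198.1 CPM in the wild type and 185.8 to 216.3 CPM in the knockout, which overlap (log2 fold change 0.13 ± 0.05, adjusted p = 0.122, edgeR). Rps14, lost in the myelodysplastic 5q deletion, was at 515.5 to 574.8 CPM and 553.0 to 646.8 CPM, also overlapping (0.15 ± 0.05, adjusted p = 0.0678, edgeR). Title number 2 minus 1 of the wild type gave 0.14 ± 0.05 for Rps14 and 0.16 ± 0.05 for Rps19 on the log2 scale, about as much as the genotype difference. Rpsa, named for a laminin receptor and present at 32.01 ± 1.19 CPM, was called at 0.18.

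Several members are paralog copies of another member. Of 6 copies, 4 were tested and none was called, with 1 log2 fold change above 0 and 3 below. At an unadjusted p under 0.05 edgeR had only Rpl7l1, lower, which DESeq2 called (adjusted p = 0.0138). Rpl7l1, a factor of the Rpl7 family, was at 185.5 to 225.5 CPM in the wild type and 171.3 to 185.8 CPM in the knockout. The ranges touched, with clone 2D highest. Its parent Rpl7 was at 464.3 to 511.5 and 509.2 to 544.0 CPM. Rpl22l1 was at 54.9 ± 4.34 against 56.5 ± 3.76 CPM, where its parent Rpl22 was called higher. Rps27l, a p53 target, was at 128 ± 12.5 against 122 ± 8.41 CPM, above the 0.948 ± 0.290 CPM counted for its parent Rps27. Rpl3l was at 0.260 to 2.81 CPM in the wild type, highest in 2E, and 0.297 to 2.01 CPM in the knockout, and its parent Rpl3 was at 141 ± 6.34 against 150 ± 6.50 CPM. The difference between a copy and its parent was not tested.

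Of the 4 X-linked members, only Rps4x was called. Rpl10, which joins the large subunit late in its maturation and lies on the same chromosome as Taz, was at 16.6 ± 2.22 against 16.5 ± 1.48 CPM (SD, n = 6 each). Rpl39, the small protein in the exit tunnel, was at 133 ± 5.83 against 136 ± 8.20 CPM, and Rpl36a at 5.33 ± 0.225 against 4.92 ± 0.512 CPM. The highest variation within the wild type was in members with few counts: Rpl3l (81.3% of its mean), Rps29 (45.7%) and Rpl23a (38.5%). In the called members that coefficient was 1.99% to 5.39%.

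The members together held 2.02% ± 0.0681 of a wild-type clone's gene counts and 2.23% ± 0.0880 of a knockout clone's (SD, n = 6 each). In the wild type the shares were 1.99% in 1A, 1.94% in 1B, 2.01% in 1C, 2.00% in 2D, 2.05% in 2E and 2.14% in 2F. In the knockout they were 2.37% in 3G, 2.29% in 3H, 2.19% in 3I, 2.14% in 4J, 2.15% in 4K and 2.26% in 4L. The genotypes did not overlap, though 2F at 2.139% and 4J at 2.143% nearly met. The deepest clone, 1B with 27431544 gene counts, had the lowest share, and the shallowest, 3G with 18970252, the highest. Within the wild type the order did not follow depth throughout, since 2E with 26829138 gene counts had a higher share than 1C with 21966954. In the knockout, 3G, 3H and 4L had the fewest gene counts (18970252, 19778119 and 19913625) and the highest shares. Knockout clone 4J had the most gene counts of its genotype (23658158) and the lowest share. The share of reads at several places was also highest in 3G (44.9%), followed by 3H (44.4%) and 4L (44.2%), as for the members' share. In the wild type 2F was highest (43.8%) and 1B lowest (42.8%) in both shares, while the clones between them were ordered differently. After every library was thinned to 18970252 counts, 30 members were called higher, 27 of them among the 28, beside 4.05% of all 11610 genes tested. The part of depth in the shares, and that of reads at several places in the result, was not tested.

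Genes of both subunits were among those called. The large subunit's share went from 1.16% ± 0.0390 to 1.28% ± 0.0449, a ratio of 1.10, and the small subunit's from 0.856% ± 0.0312 to 0.952% ± 0.0441, a ratio of 1.11. In each subunit the genotypes overlapped, with wild-type clone 2F above knockout clone 4K in the large and above 4J in the small. Of large subunit members, 15 of 48 were called higher with a median log2 fold change of 0.10, and of small subunit members 13 of 32 with a median of 0.12. At 7 log2 CPM or more the counts were 14 of 24 and 11 of 18, with medians of 0.15 in both. The mean log2 CPM of large minus small subunit members was 0.06 ± 0.05 in the wild type and 0.07 ± 0.06 in the knockout (SD over 6 clones). The change in that difference was 0.01, less than the spread between clones, and it turned sign with summed CPM (-0.02), and without clone 3G or clone 3I (-0.0030 and -0.0029). Among members at 7 log2 CPM or more the change was also negative (-0.0175), from -0.189 ± 0.0149 in the wild type to -0.206 ± 0.0147 in the knockout.

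**Figure D4:**
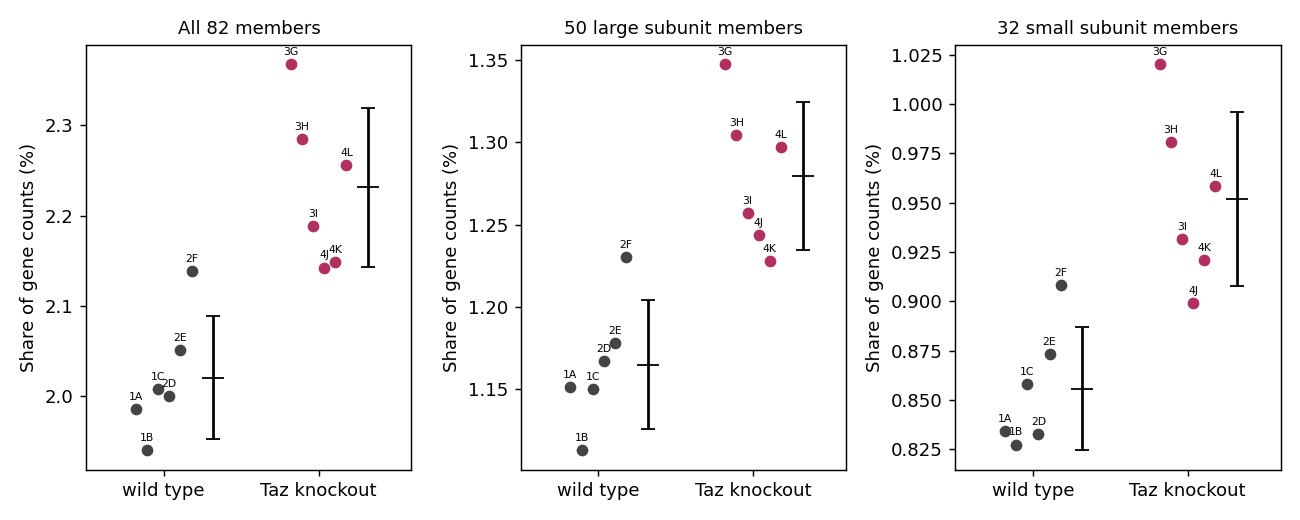
Share of each clone's gene counts in all 82 members, the 50 large subunit members and the 32 small subunit members (percent, axes not starting at 0), by genotype, with 1 labelled point per clone and the mean with its SD at the right of each group. In the left panel all 6 knockout clones, from 2.14% to 2.37%, lie above the wild-type clones at 1.94% to 2.14%. In the middle panel 2F lies above 4K, and in the right panel 2F lies above 4J.

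A model with 1 group for each title number asked whether the difference rested on 1 of them. Its 4 comparisons of a knockout with a wild-type number share libraries, so they are not independent. Number 3 minus number 1 called 9 members higher (0.973% of all genes were called higher), and 3 minus 2 called 2 (0.418%). Number 4 minus 1 called 1 (0.281%) and 4 minus 2 called 1 (0.201%), and no member was called lower in any of the 4. At an unadjusted p under 0.05, between 0 and 5 members were lower and 19 to 43 higher in each. Over all 12435 genes, 1511 to 2025 were under that threshold in either direction. The 9 included Rpl13a, Rpl18, Rpl22, Rpl34, Rps14, Rps19, Rps20 and Rps4x, and Rps20 was also called in 3 minus 2. A call in all 4 was made for 1 member and for 0.161% of all genes.

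Within a genotype, edgeR called no gene between title numbers 2 and 1 or between 4 and 3 (0% of 12435 genes in either). At an unadjusted p under 0.05 there were 451 genes in the first, 8 of them members, and 278 in the second, 3 of them members. The members' median log2 fold change was 0.04 for 2 minus 1, with 64 of 80 positive, and -0.03 for 4 minus 3, with 26 of 80 positive. Averaging over the 4 comparisons, 26 members were called higher, beside 3.06% of all genes, 24 of them among the 28, and Rps14 and Rps19 joined. When the 3 clones of each number were summed, leaving 2 samples per genotype, 1 member was called higher (1 of 80), where 1.14% of all 13800 genes tested were, so that share is near the background.

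**Figure D5:**
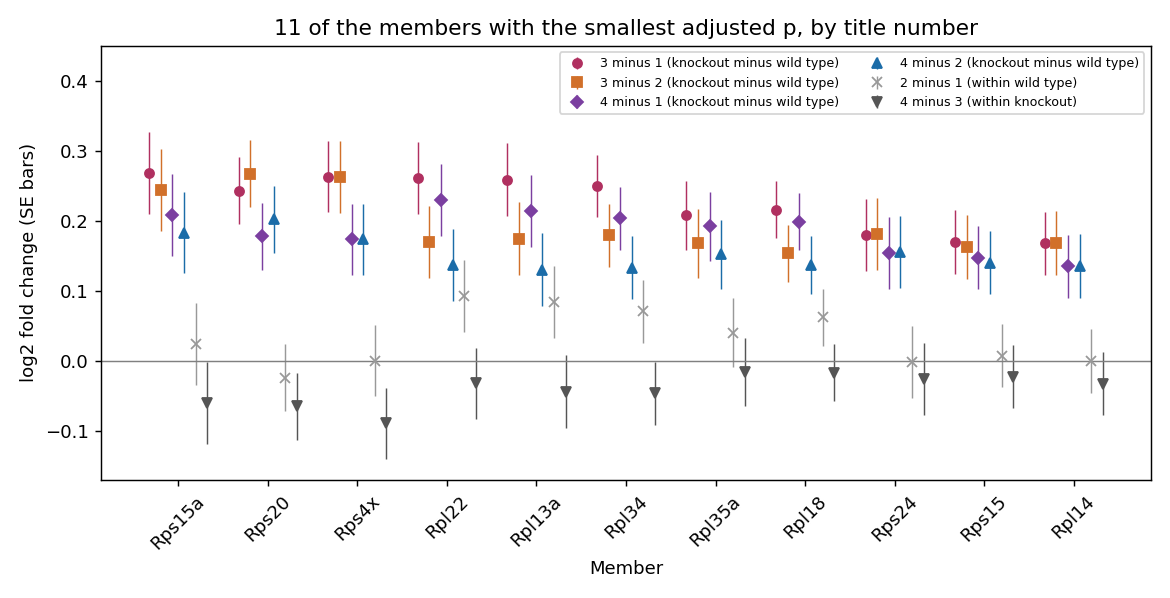
Log2 fold change with its standard error between title numbers for 11 of the 12 members with the smallest adjusted p, with 4 coloured marks for knockout minus wild-type numbers and 2 grey marks for differences within a genotype. All coloured marks lie above 0, from 0.13 upward, and the grey marks lie between -0.09 and 0.09, around 0. The members were picked by the genotype test on these same clones, which favours this pattern, so the marks are not separate support. Among members not drawn, Rps14 and Rps19 differed between the wild-type title numbers about as much as between the genotypes.

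Among cytosolic ribosomal genes that the symbol rule does not take, Rack1, a scaffold on the small subunit head, was at 2124 to 2341 CPM in the wild type and 2522 to 2829 CPM in the knockout. The genotypes did not overlap (log2 fold change 0.22 ± 0.04, adjusted p = 0.00508, edgeR). Fau and Rpl36al were not called, with log2 fold changes of -0.01 and 0.01. Fau, made as a fusion with a ubiquitin-like protein, was counted at 1.25 ± 0.213 CPM in the wild type.

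Of 18 other genes with TOP mRNAs, 6 were called higher (33.3%, beside 3.99% of all genes) and none lower. The median log2 fold change of these 18 was 0.08. At an unadjusted p under 0.05, 9 were higher and 1 lower. Gas5, a non-coding host of small nucleolar RNAs, went from 193 ± 18.4 to 250 ± 9.85 CPM (log2 fold change 0.37). Eef1a1, which brings aminoacyl-tRNA to the ribosome, went from 2940 ± 173 to 3487 ± 130 CPM (0.25). Eef2, the translocase, went from 4238 ± 302 to 5040 ± 252 CPM (0.25), and Eif3f, an initiation factor subunit, from 504 ± 11.6 to 554 ± 18.5 CPM (0.14). Eif3e and Eef1b2 were the other 2 called.

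Of 89 ribosome biogenesis genes, 6 were called higher (6.74%) and 2 lower, and the median log2 fold change was 0.04. Over all genes 3.99% were called higher and 3.94% lower, and at 7 log2 CPM or more 6.67% were higher. The share of this list is thus near the background. Mdn1, the ATPase that strips factors from the pre-large subunit, went from 225 ± 21.6 to 282 ± 19.7 CPM (0.33). Nop14 and Utp14a, of the small subunit processome, were called at 0.22 and 0.17. Efl1, the GTPase that helps release eIF6 from the large subunit, was lower at -0.16. Of 19 regulators of ribosomal protein mRNAs, 2 were called higher and 1 lower, beside 3.99% and 3.94% of all genes. Eif4ebp1, the translation repressor that mTORC1 inactivates, went from 101 ± 16.6 to 148 ± 11.8 CPM (log2 fold change 0.56 ± 0.10, adjusted p = 0.00652, edgeR). Mdm2, the ubiquitin ligase of p53, was higher at 0.16, and Rps6kb2, an S6 kinase, was lower at -0.28.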

How the data were processed

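RNA-seq of total RNA from 12 clones was read from deposited files of raw counts per gene. The authors named STAR, HTSeq, edgeR and build mm9, per the submitters' processing notes, and the deposited counts were used unchanged. Reads placed at several positions, outside genes or ambiguously are listed apart in the files and were not counted to genes. The read length and annotation release are not given in the sources used here. Symbols came from GENCODE M21, which matched 32860 of 37583 identifiers. Counts were filtered with filterByExpr, scaled by TMM and tested with edgeR 4.0.16 (glmQLFit, glmQLFTest) in R 4.3.3 over all genes, with Benjamini-Hochberg adjustment. DESeq2 1.42.0 and limma 3.58.1 voom were alternatives. Words of 50 bases were compared with GENCODE M21 transcripts of other genes. Shares and subunit differences had no test. The members and lists were chosen with earlier results of these data known. The 12 members with the smallest adjusted p, the paralog copies with their parents, the X-linked members, fixed genes and the 3 highest, lowest and most variable members were named by rule, and other names were chosen after their values were seen. No clone pair held identical counts. Errors after ± are SDs over clones, or SEs of fitted log2 fold changes where stated. Some genes enter the fits and counts but are not reported here by name or drawn singly.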

Additional observations from a re-analysis of the deposited data

Results flagged for a closer look

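Of 86 groups of 6 clones examined, 3 had a clone far from the other 5, all in knockout clone 3G, and chance sets a clone apart in about 1 of 20 groups. Rps15 was at 491.1 CPM in 3G and at 459.2 to 470.7 CPM in the other 5 knockout clones. Rpl10l was at 0.633 CPM in 3G, from 12 counts, and at 0 in the other 11 clones. Rpl39l was at 0.316 CPM in 3G, from 6 counts, and at 0 in the other 11 clones. Neither copy passed the low-count filter.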

How the results depend on the processing

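The main counts were 938 genes called, 28 members higher and none lower, with a members' median log2 fold change of 0.12. With no low-count filter 551 genes and 14 members were called, with DESeq2 1630 genes and 2 members lower, and with each title number summed 274 genes and 1 member. Scaling by total count alone called 1 member lower, Rpl7l1. Among the 7 tested members with under 10% of transcript words elsewhere, 3 were called and the median was 0.17. For members at 7 log2 CPM or more, an alternative chosen after seeing the data, the median was 0.15. Leaving out 1 clone at a time gave 570 to 1031 genes, 16 to 29 members higher and 0 to 1 lower. It gave -0.0030 (without 3G) and -0.0029 (without 3I) up to 0.0231 for the change of large minus small subunit level, which was 0.0108 in full and -0.0176 from summed CPM. That change was -0.0175 among members at 7 log2 CPM or more. The difference in share, 0.211 percentage points, stayed between 0.184 and 0.235 without 1 clone. Scaling without the members called 31 members higher, DESeq2's size factors 30 and the model of 4 title numbers 26. No called named member changed sign in any of 21 settings, and 47 of 357 such fits lost a call. The cause of these changes was not tested. No paired analysis was possible because the title numbers are not shared between the genotypes. Under 5 log2 CPM no member was called, and the median standard error there was 0.11.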
